A study of Homo sapiens with 16 samples.

Results

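The 10 transcripts described here encode the enzymes that carry glucose 6-phosphate down to pyruvate: GPI, ALDOA, ALDOC, TPI1, GAPDH, PGK1, PGAM1, ENO1, ENO2 and PKM. They were taken by gene symbol from the 63187 genes of the count table, and all 10 were among the 19530 genes that passed the low-count filter. The libraries came from SK-N-BE(2) cells, an established line from a human neuroblastoma in which MYCN is amplified, grown in air-level oxygen (21%) with serum. WT stands for the cells labelled wild type. FL cells had been transfected with full-length HIF-2α, the oxygen-regulated transcription factor encoded by EPAS1. NCTAD and cIDR cells received the forms named ΔN-CTAD and Δc-IDR in the study design, read here as deletions of those regions. Each of the 4 groups had 4 libraries, and the labels give the replicate number of every library also as its batch, 1 to 4. The labels name no vector or harvest time and do not say if WT cells were mock transfected, so transfection itself and HIF-2α cannot be told apart in any comparison with WT. Nothing in the labels says that batches were separate cultures, so the p-values measure the spread between these libraries.

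Glycolysis turns glucose into pyruvate in the cytosol and yields ATP without oxygen. GPI turns glucose 6-phosphate into fructose 6-phosphate. After phosphofructokinase, aldolase (ALDOA, the widespread form, and ALDOC, the form typical of brain) splits the sugar into trioses, which TPI1 interconverts. GAPDH then oxidises the triose phosphate and makes NADH, PGK1 makes the first ATP, PGAM1 moves the phosphate, enolase (ENO1, widespread, and ENO2, the neuronal form) removes water, and pyruvate kinase (PKM) makes the second ATP. Many of these genes are textbook targets of hypoxia-inducible factors, chiefly of HIF-1α, which bind a short core motif, A/G followed by CGTG, near their promoters. GAPDH also serves widely as a reference transcript.

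To show where that core stands, the 250 bases before the transcription start were searched for ACGTG and GCGTG on both strands in the RefSeq promoter table (GRCh38.p14). Overlapping matches, such as the palindrome CACGTG, were joined into 1 site. Of 35116 windows of this length in the table, 43.2% held at least 1 site and 5.56% held at least 3. All 10 enzymes had a window, ALDOA had 3 and TPI1 had 2. Sites numbered 4 for ALDOC, 3 for PGK1, 2 for ENO1 and 1 each for GPI, GAPDH and ENO2. Each ALDOA window held 1, the TPI1 windows held 0 and 2, and the windows of PGAM1 and PKM held 0. The windows of GPI, GAPDH, PGAM1 and PKM lie inside the gene spans given below, as do some or parts of those of ALDOA and TPI1. Such windows precede a start within the gene and do not show the bases before its outermost start. A match is a description of the letters and not a bound site, and a window without one says nothing of the factor. The 4 windows printed here lie wholly before their genes and hold between 4 sites and 1, with the matched letters in capitals, each read 5′ to 3′ on the strand of the gene. ALDOC lies at chr17:28576896-28577145 on the minus strand, PGK1 at chrX:78103998-78104247 on the plus strand, ENO1 at chr1:8878687-8878936 on the minus strand and ENO2 at chr12:6914330-6914579 on the plus strand.
ALDOC: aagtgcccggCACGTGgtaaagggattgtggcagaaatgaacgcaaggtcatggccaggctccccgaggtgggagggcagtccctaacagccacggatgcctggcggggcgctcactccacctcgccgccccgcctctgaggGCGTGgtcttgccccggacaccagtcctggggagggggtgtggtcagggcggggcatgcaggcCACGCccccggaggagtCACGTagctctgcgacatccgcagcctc
PGK1: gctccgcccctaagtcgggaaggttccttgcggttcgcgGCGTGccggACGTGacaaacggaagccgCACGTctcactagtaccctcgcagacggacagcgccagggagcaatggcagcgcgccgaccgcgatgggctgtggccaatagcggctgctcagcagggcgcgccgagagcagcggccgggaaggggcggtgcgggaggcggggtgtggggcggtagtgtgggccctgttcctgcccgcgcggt
ENO1: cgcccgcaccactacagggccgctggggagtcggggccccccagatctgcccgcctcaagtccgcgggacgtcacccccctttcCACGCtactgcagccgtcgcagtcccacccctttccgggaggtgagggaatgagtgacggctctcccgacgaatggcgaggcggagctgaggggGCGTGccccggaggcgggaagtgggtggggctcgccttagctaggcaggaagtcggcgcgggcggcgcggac
ENO2: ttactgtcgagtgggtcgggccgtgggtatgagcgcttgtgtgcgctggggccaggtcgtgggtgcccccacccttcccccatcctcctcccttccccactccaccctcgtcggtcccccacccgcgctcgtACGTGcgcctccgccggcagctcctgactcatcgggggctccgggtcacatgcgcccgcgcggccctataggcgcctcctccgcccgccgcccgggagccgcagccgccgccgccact

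The genes are spread over 8 chromosomes. In RefSeq on GRCh38.p14, GPI spans chr19:34359718-34402413, ALDOA chr16:30064279-30070420, ALDOC chr17:28573120-28576895 and PGK1 chrX:78104248-78129295. PGAM1 spans chr10:97426191-97433444, ENO1 chr1:8861000-8878686 and PKM chr15:72199029-72231591. GAPDH, TPI1 and ENO2 share a stretch of 389 kb on chromosome 12, at chr12:6534517-6538371, chr12:6867420-6870948 and chr12:6914580-6923697.

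Library totals ranged from 38.6 to 56.1 M (mega) estimated counts. EPAS1 checked the WT labels against those of transfected libraries, but not which construct a library held. It stood between 13.0 and 28.1 CPM (counts per mega counts on TMM-scaled library sizes) in WT and between 1319.7 and 5852 CPM in the 12 transfected libraries. Its range was 1691 to 3580 CPM in FL, 1319.7 to 4228 in NCTAD and 2189 to 5852 in cIDR. In every batch EPAS1 was highest in cIDR, so its dose differed there as well as its form. Between FL and NCTAD the order changed with the batch. All 11 neuroblastoma markers passed the filter, with a summed level of 6464 to 7710 TPM (transcripts per mega transcripts, scaled to length), although TH was low at 0.926 to 11.2 TPM. Immune markers summed to 1.08 to 2.15 TPM with PTPRC and CD3E at a median of 0, and epithelial markers to 8.99 to 14.5 TPM, mostly KRT19 (median 9.14 TPM), with CDH1 at a median of 0. Mesenchymal markers summed to 106.7 to 112 TPM in the 4 libraries of batch 2 and to 45.8 to 61.0 TPM in the other 12. Neuroblastoma markers summed to 6464 to 6913 TPM (median 6692) in batch 2 and to 6737 to 7710 TPM (median 7147) in the other 12, with overlapping ranges. In bulk RNA, a shift in the cells present and a shift in RNA per cell cannot be told apart.

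GAPDH was the most abundant of the enzymes at a median of 6291 TPM over the 16 libraries, from 5512 to 7279, above every value of any other. Next came ALDOA (median 1699.8 TPM, range 1390.3 to 2577), PKM (1394, range 1293 to 1525), ENO1 (1219, range 1032 to 1857) and TPI1 (1120.4, range 916 to 1635), whose ranges overlapped. GPI (511 TPM), PGK1 (439 TPM) and PGAM1 (413 TPM) followed with overlapping ranges, and no library of theirs reached the lowest TPI1 value. ENO2 had a median of 159 TPM, from 137 to 196, and ALDOC a median of 30.1 TPM, from 19.9 to 136. The neuronal enolase and the brain aldolase were therefore the minor forms of their steps in every library. Between the lowest and the highest library the TPM level differed 6.82-fold for ALDOC, 2.37-fold for PGK1 and 1.18-fold for PKM. The PKM row sums the M1 and M2 splice forms, which were not separated here. Together the 10 transcripts made up 1.16% of all TPM in the lowest library, WT of batch 4, and 1.75% in the highest, cIDR of batch 2.

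**Figure D1:**
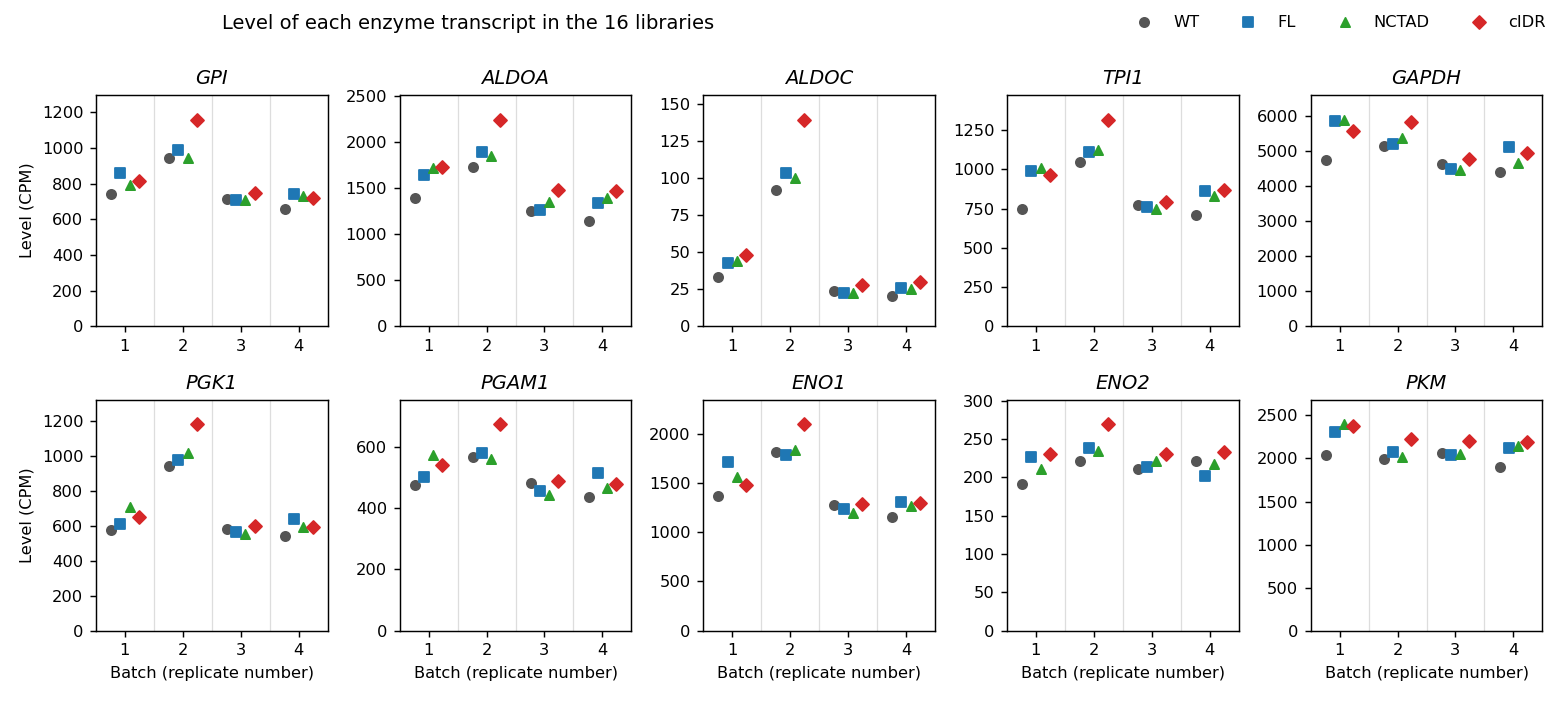
Level of each enzyme transcript (CPM, linear axis from 0) in each of the 16 libraries, by batch and group; each point is 1 library. ALDOC and PGK1 stand highest in batch 2 in all 4 groups, while PKM lies between 1902 and 2395 CPM in every batch.

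Called enzymes were found with the cIDR form. On CPM, all 10 stood higher in cIDR than in their WT batch partner in 4 of 4 batches, where 10.6% of the tested genes did so. On TPM, a scale added after seeing the data, this held for 3 of the 10, ALDOA, ALDOC and PKM, beside 3.94% of the tested genes. Both aldolases rose past the threshold (adjusted p under 0.05, edgeR quasi-likelihood test with batch in the model, Benjamini-Hochberg adjustment over all 19530 genes), and the other 8 did not. Over all tested genes 0.486% were called in this comparison. At an unadjusted p under 0.05 in edgeR there were 9 of the 10 enzymes and 1064 of 19530 genes. The median log2 difference of the 10 enzymes was 0.17, beside 0.01 over all tested genes.

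ALDOC stood at 33.1, 92.0, 24.0 and 20.4 CPM in the WT libraries of batches 1 to 4 and at 48.1, 139, 28.0 and 29.7 CPM in the cIDR libraries. Each cIDR library was above its batch partner, while the groups overlapped across batches. The log2 difference was 0.48 ± 0.07 (SE), a 1.39-fold rise, with an adjusted p of 0.00778 by edgeR. ALDOA stood at 1394, 1727, 1254 and 1147 CPM in WT and at 1735, 2242, 1479 and 1468 CPM in cIDR. Its log2 difference was 0.32 ± 0.05, 1.25-fold, with an adjusted p of 0.00953 by edgeR, and the within-batch differences ran from 0.24 in batch 3 to 0.38 in batch 2. Both calls were lost without batch 2, with log2 differences of 0.42 for ALDOC (adjusted p = 0.128) and 0.30 for ALDOA (adjusted p = 0.0759), and with no replicate block, with log2 differences of 0.53 and 0.33 (adjusted p = 1.00 for each). They were lost too in limma on log2(TPM + 1), with differences of 0.38 for ALDOC (adjusted p = 0.146) and 0.23 for ALDOA (adjusted p = 0.309), and on log2(TPM + 0.1) (adjusted p = 0.141 and 0.255). The ALDOA call was also lost without the WT library of batch 1 or 4 or the cIDR library of batch 2 or 3, at adjusted p up to 0.0663, while its log2 difference stayed between 0.29 and 0.34.

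ENO2 and PKM differed less in size, but on CPM every cIDR library was above every WT library, as for 0.876% of all tested genes. On TPM this held for PKM alone among the enzymes, beside 0.369% of all tested genes, while ENO2 reached 172 TPM in WT and went down to 159 TPM in cIDR. ENO2 read 191, 221, 211 and 221 CPM in WT and 230.3, 269, 231 and 233 CPM in cIDR. The log2 difference was 0.19 ± 0.05 with an adjusted p of 0.280 by edgeR. PKM read 2041, 1992, 2066 and 1902 CPM in WT against 2375, 2229, 2207 and 2193 CPM in cIDR. Its log2 difference was 0.17 ± 0.05 with an adjusted p of 0.296 by edgeR. DESeq2 called PKM (adjusted p = 0.0192) and TPI1 (adjusted p = 0.0442) as well as both aldolases.

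TPI1, the triose isomerase, had a log2 difference of 0.25 ± 0.07 between cIDR and WT, with an adjusted p of 0.268. The remaining 5 lay between 0.12 for ENO1 and 0.17 for PGK1, with GPI, GAPDH and PGAM1 at 0.16, 0.16 and 0.14, and none was called. GAPDH itself read 4750.4, 5138, 4647 and 4405 CPM in WT and 5583, 5846, 4779 and 4960 CPM in cIDR. On CPM the reference transcript was thus also higher in each cIDR library than in its batch partner, by 0.04 in batch 3 to 0.23 in batch 1 on the log2 scale. On TPM GAPDH was lower in cIDR than in WT in batch 3, at 5772 against 5944 TPM. On CPM, batch 3 gave the smallest cIDR difference for 9 of the 10 enzymes, and ENO2 had its smallest, 0.08, in batch 4. EPAS1 was most abundant in the cIDR libraries of batches 3 and 4 (5852 and 5816 CPM), and its part in these differences was not tested.

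**Figure D2:**
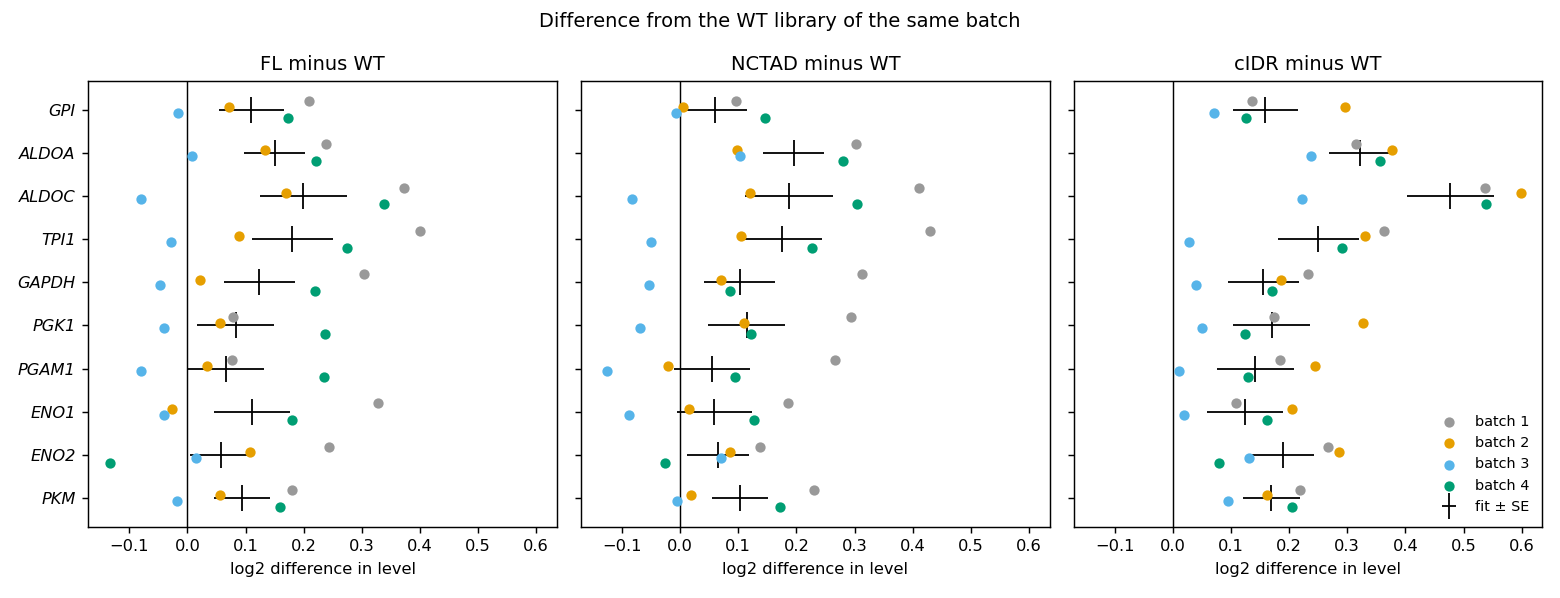
Log2 difference in CPM of each enzyme from the WT batch partner, for FL, NCTAD and cIDR; coloured points are the 4 batches and the black bar is the fitted difference ± SE. In the cIDR panel all 40 points lie above 0, with ALDOC farthest at a fitted 0.48.

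With full-length HIF-2α none of the 10 enzymes was called against WT, where 0.102% of all tested genes were. The fitted differences were all positive, as were 53.6% of those of all tested genes, and ran from 0.06 for ENO2 to 0.20 for ALDOC. In edgeR 3 enzymes had an unadjusted p under 0.05, beside 998 of 19530 genes, and DESeq2 called 0. ALDOC read 42.9, 103, 22.7 and 25.8 CPM in the FL libraries of batches 1 to 4, above its WT partner in batches 1, 2 and 4 and below it in batch 3. ALDOA alone was higher in 4 of 4 batches, at 1645, 1893, 1261 and 1337 CPM, against a share of 5.35% of all tested genes, and on TPM TPI1 alone was (4.07%). The log2 difference of ALDOA was 0.15 ± 0.05 with an adjusted p of 0.883 by edgeR. In batch 3 the other enzymes stood below WT in FL, except ENO2 at a difference of 0.01.

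The NCTAD form also gave 0 called enzymes against WT, with 0.456% of all tested genes called, and 3 enzymes had an unadjusted p under 0.05 in edgeR, beside 1164 of 19530 genes. Fitted differences ran from 0.05 for PGAM1 to 0.20 for ALDOA. ALDOA read 1718, 1847, 1346 and 1392 CPM and was the only enzyme higher than WT in 4 of 4 batches, as were 8.86% of all tested genes, and it was so on TPM too (3.34%). Its log2 difference was 0.20 ± 0.05 with an adjusted p of 0.235 by edgeR, and DESeq2 called it (adjusted p = 0.0167). The sign was not stable for the smallest differences: GPI, PGAM1, ENO1 and ENO2 turned negative, at −0.01 to −0.04, when tested on log2(TPM + 1). These comparisons with WT share the same 4 WT libraries, so they are not independent of each other.

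Set against each other, the constructs gave no called enzyme. NCTAD and FL were the nearest pair for the enzymes and in called genes. Differences ran from −0.05 for ENO1 to 0.05 for ALDOA, and 0% of all tested genes were called by edgeR (DESeq2 called 12 genes). At an unadjusted p under 0.05 in edgeR the pair was not nearest, with 721 genes beside 718 in cIDR against FL and 419 in cIDR against NCTAD. Genes higher in NCTAD than in FL in 4 of 4 batches made up 6.02% of those tested, and 0 of the 10 enzymes were among them, on TPM (2.83%) as on CPM. The SE of these differences was 0.05 to 0.07. Larger differences went uncalled elsewhere, such as TPI1 at 0.25 ± 0.07 in cIDR against WT (adjusted p = 0.268 by edgeR). Differences well above the SE could therefore go unseen here.

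In cIDR against FL the fitted differences of all 10 enzymes were positive, from 0.01 for ENO1 to 0.28 for ALDOC (49.8% of all tested genes were positive), and edgeR and DESeq2 both called 0, against 0.0307% of all tested genes in edgeR. Of the 10, 3 had an unadjusted p under 0.05 in edgeR, beside 718 of 19530 genes. ALDOC differed by 0.28 ± 0.07, with an interval from 0.13 to 0.42 (nominal 95%, normal quantiles, unadjusted) and an adjusted p of 0.743 by edgeR. ALDOA, ALDOC, ENO2 and PKM were higher in cIDR than in FL in 4 of 4 batches, as were 4.9% of all tested genes. On TPM this held for ALDOC and ENO2, beside 2.86% of all tested genes. ENO1 turned to −0.04 without batch 2 and to −0.02 on log2(TPM + 1), where GAPDH also turned to −0.02.

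Against NCTAD, cIDR was higher in 4 of 4 batches for ALDOA, ALDOC and ENO2 on CPM, beside 4.38% of all tested genes. On TPM it was so for 8 enzymes, all but GPI and PGK1, beside 5.43% of all tested genes. ALDOC differed by 0.29 ± 0.07, with an interval from 0.14 to 0.44 and an adjusted p of 1.00 by edgeR. ALDOA differed by 0.13 ± 0.05 and ENO2 by 0.12 ± 0.05, and edgeR and DESeq2 both called 0 enzymes, where edgeR called 0.00512% of all tested genes. At an unadjusted p under 0.05 in edgeR there were 3 enzymes and 419 of 19530 genes.

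The median difference of the enzymes was larger between batch 2 and the other batches (0.44) than between any construct and WT (at most 0.17). Of the 10 enzymes 9 were called higher in batch 2 than in the mean of batches 1, 3 and 4, where 53.9% of all tested genes were called in either direction and 27.7% were called higher. PKM was not called. The differences were graded, from 1.87 for ALDOC and 0.77 for PGK1 down to 0.12 for GAPDH on the log2 scale, with a median of 0.03 over all tested genes. Batch 2 is 1 batch that was singled out with earlier results known, so the p-values describe the libraries within batches and not a repeatable condition. On log2(TPM + 1) the calls over all genes split into 5405 higher and 3017 lower, against 5414 and 5107 in the count model, and the same 9 enzymes were called.

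Among the steps down to the trioses, the brain aldolase stood apart. ALDOC read 92.0, 103, 100.05 and 139 CPM in WT, FL, NCTAD and cIDR of batch 2, and between 20.4 and 48.1 CPM, median 26.9, in the other 12 libraries. The highest of those 12 was below the lowest of batch 2, and the rise was 3.66-fold (log2 1.87 ± 0.06, adjusted p 4.44e-12 by edgeR). ALDOA rose 1.35-fold (0.43 ± 0.04), with batch 2 libraries from 1727 to 2242 CPM and the others from 1147 to 1735 CPM, so its groups overlapped. GPI rose 1.36-fold (0.44 ± 0.04), from 942 to 1157 CPM in batch 2 against 658 to 857 CPM elsewhere. TPI1 rose 1.38-fold (0.46 ± 0.06), from 1047 to 1317 CPM against 712 to 1009 CPM.

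Below the trioses PGK1 differed most. PGK1, which makes the first ATP, read 941, 978, 1015 and 1181 CPM in WT, FL, NCTAD and cIDR of batch 2 and 544 to 707 CPM elsewhere. Its rise was 1.71-fold (0.77 ± 0.05, adjusted p 1.81e-08 by edgeR), with no overlap. ENO1 rose 1.40-fold (0.49 ± 0.05), from 1781 to 2092 CPM against 1156 to 1716 CPM, and PGAM1 rose 1.22-fold (0.29 ± 0.05) with overlapping ranges. In all, GPI, ALDOC, TPI1, PGK1 and ENO1 had every batch 2 library above the other 12, as did 14.4% of all tested genes. On TPM, ALDOA, PGAM1 and ENO2 joined them, for 8 of 10 beside 13.9% of all tested genes.

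ENO2 and GAPDH were called by narrower margins. ENO2 rose 1.11-fold (0.14 ± 0.04, adjusted p 0.0107 by edgeR), and the call was lost without the cIDR library of batch 2 (adjusted p = 0.0810) and against batch 3 alone (adjusted p = 0.0535). GAPDH rose 1.09-fold (0.12 ± 0.05, adjusted p 0.0478 by edgeR). Leaving out single libraries ended the GAPDH call in 11 of 16 cases, with differences of 0.09 to 0.15, as did median-of-ratios scaling (adjusted p = 0.0504) and a fit with no group term (adjusted p = 0.0733), and against batch 1 alone its difference was −0.03. Batch 1 held the highest GAPDH library of all, NCTAD at 5900.4 CPM, against 5138 to 5846 CPM in batch 2.

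PKM, the last step, stood at 1992 to 2229 CPM in batch 2 and 1902 to 2395 CPM in the other 12 libraries. Its difference was −0.05 ± 0.04 with an adjusted p of 0.300 by edgeR, on log2(TPM + 1) it was 0.03, and against batch 1 alone it was −0.13 and called lower (adjusted p = 0.0360). Among the 10, ALDOC and PGK1 thus differed most in batch 2 and PKM, GAPDH and ENO2 least, while ENO1, the main enolase, differed by 0.49.

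**Figure D3:**
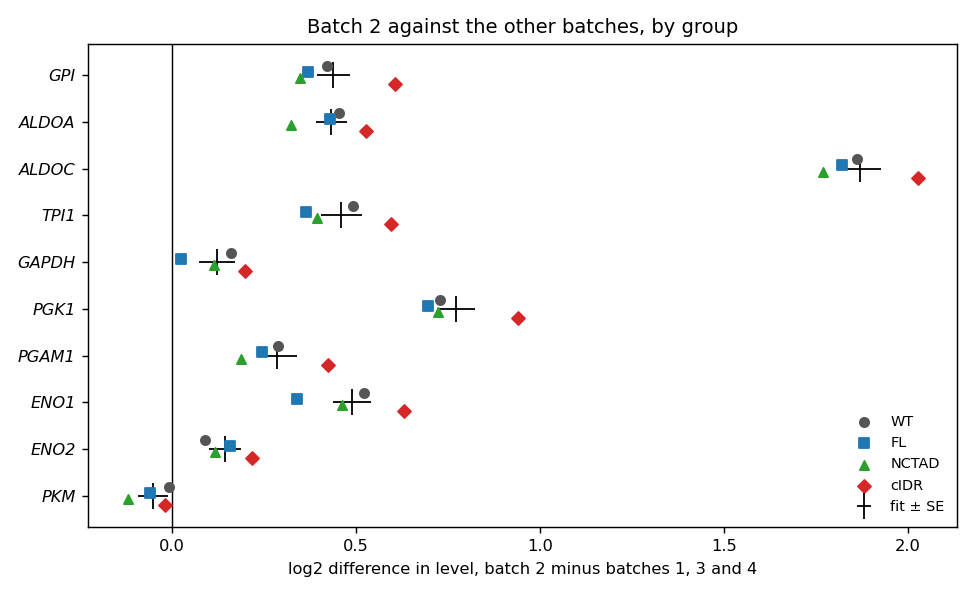
Log2 difference in CPM of each enzyme between batch 2 and the mean of batches 1, 3 and 4; coloured points are the 4 groups and the black bar is the fitted difference ± SE. ALDOC lies between 1.77 and 2.03 and PGK1 between 0.70 and 0.94 in the 4 groups, and PKM lies below 0 in each.

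The size of the construct differences in batch 2 was compared with that in the other batches by an interaction term. For cIDR against WT the difference was larger in batch 2 for 9 of 10 enzymes, by up to 0.21 (PGK1, SE 0.16), as for 48.1% of all tested genes, and 0 were called, against 0.0154% of all tested genes. For FL and NCTAD it was smaller in batch 2 for 9 of 10 enzymes each, down to −0.18 and −0.13, where 48.9% and 46.0% of all tested genes had a larger one. There 0 enzymes were called as well, with 0.00512% and 0.0307% of all tested genes called. The SE of these interaction terms was 0.13 to 0.18, and in edgeR 0 enzymes had an unadjusted p under 0.05 in any of them.

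Isoenzyme shares moved with the batch. ALDOC made up 4.28%, 4.42%, 4.33% and 5.00% of aldolase TPM (ALDOA plus ALDOC) in WT, FL, NCTAD and cIDR of batch 2, and 1.37% to 2.22% in the other 12 libraries. Within batches 1, 2 and 4 the cIDR library held the highest share, whereas in batch 3 WT did, at 1.60%. ENO2 made up 9.24% to 10.1% of enolase TPM in batch 2 and 9.73% to 13.5% in the others. The batch 2 shares overlapped the lowest of the others, which lay in batch 1, and the log2 differences in batch 2 were 0.49 for ENO1 and 0.14 for ENO2.

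**Figure D4:**
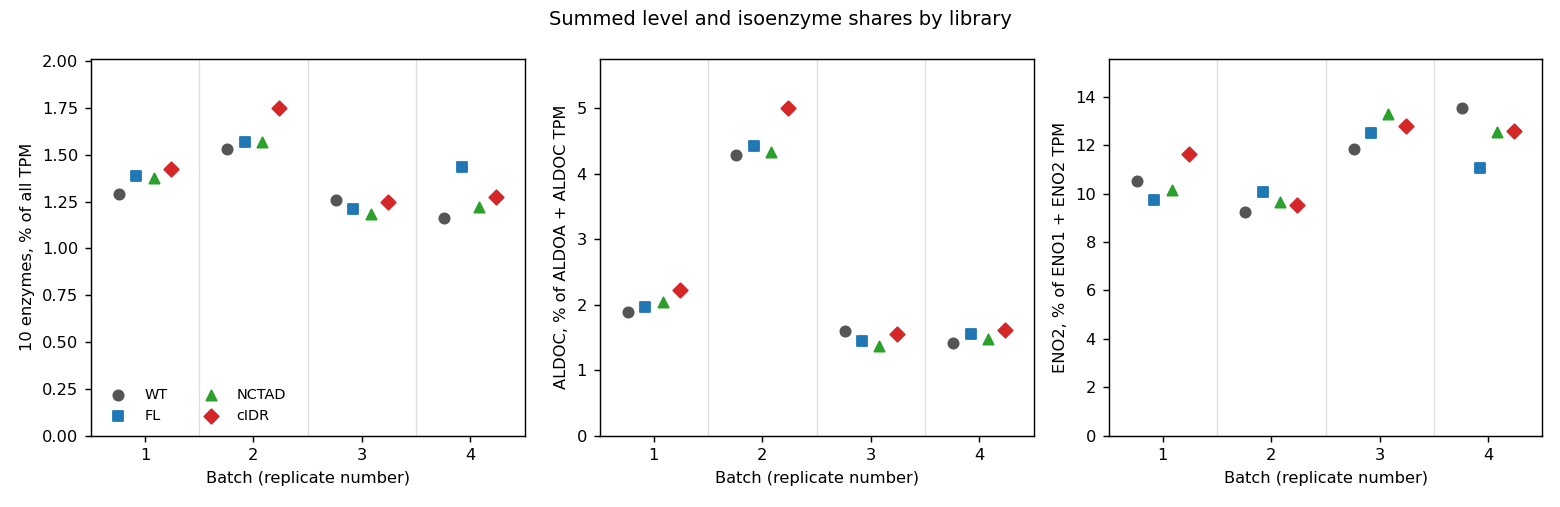
Summed TPM of the 10 enzymes as a percentage of all TPM (left), ALDOC as a percentage of aldolase TPM (middle) and ENO2 as a percentage of enolase TPM (right), by batch and group; each point is 1 library and the axes start at 0. The ALDOC share is 4.28% to 5.00% in batch 2 and at most 2.22% elsewhere.

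Genes next to these enzymes in metabolism were counted from lists chosen by function. The counts stand beside 0.486% of all tested genes called in cIDR against WT, and 53.9% called and 27.7% called higher in batch 2, so list counts near those batch 2 shares are not results about a list. Of the 7 hexokinase and phosphofructokinase genes tested, 3 rose in cIDR against WT and 4 were not called. These were PFKP, the platelet phosphofructokinase (log2 0.89 ± 0.08, adjusted p 0.000161), PFKL, the liver form (0.36 ± 0.07, adjusted p 0.0223), and HK2, the inducible hexokinase (0.40 ± 0.08, adjusted p 0.0419), all by edgeR. In batch 2 the same list had 5 called higher and 1 lower, with PFKP at 1.96, HK2 at 1.25 and PFKL at 0.94. PFKP was also the gene of this list that was called in cIDR against FL (0.73 ± 0.08) and against NCTAD (0.74 ± 0.08). With no replicate block all 3 calls against WT were lost (adjusted p = 1.00 each), and the calls of PFKL and HK2 were lost also without batch 2 and on log2(TPM + 1), where PFKP stayed called at 0.95 and 0.72. The PFKP calls against FL and NCTAD were lost under each of these alternatives, at differences of 0.61 to 0.79 against FL and 0.68 to 0.75 against NCTAD.

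Beyond pyruvate, 1 of 10 tested genes rose in cIDR against WT: PDK1, which restrains pyruvate dehydrogenase (0.64 ± 0.12, adjusted p 0.0279 by edgeR), and that call was lost with no replicate block, without batch 2 (0.48) and on log2(TPM + 1) (0.48). In batch 2 this list had 2 called higher and 4 lower, with PDK1 at 2.81. LDHA, the lactate dehydrogenase subunit usually paired with these enzymes and picked out here after its values were seen, was low at 19.6 to 28.4 TPM beside 1525 to 1998 TPM for LDHB. Its differences were 0.09 ± 0.06 in cIDR against WT and −0.11 ± 0.05 in batch 2, neither of them called. Of the serine branch, which leaves glycolysis below PGK1, 0 of 5 were called in cIDR and 4 of 5 were higher in batch 2. The pentose phosphate list of 7 had 0 called in cIDR, and 1 higher and 4 lower in batch 2.

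Other lists were counted in the same way. Less used forms of the same enzymes, listed with bisphosphoglycerate mutase, had 0 of 5 tested called in cIDR and 3 of 5 higher in batch 2. Gluconeogenesis had 0 of 3 called in cIDR, and 2 higher and 1 lower in batch 2. Among 12 reference genes 0 were called in cIDR, and 2 were higher and 7 lower in batch 2, with a median of −0.12. HIF targets outside glycolysis had 6 of 12 called higher in cIDR against WT, 4 in NCTAD and 0 in FL, and in batch 2 there were 11 higher and 1 lower. Their median difference in cIDR was 0.43, and NDRG1 (2.49 ± 0.34), VEGFA (0.89 ± 0.11) and KDM3A (0.43 ± 0.05) had the smallest adjusted p. The NDRG1 difference moved to 3.28 without batch 2, to 3.20 without the WT library of batch 2 and to 1.56 with no replicate block. Of 11 neuroblastoma markers, TH (1.06 ± 0.17) and DBH (0.51 ± 0.07) rose in cIDR against WT, 2 were called higher in NCTAD, and 5 were higher and 4 lower in batch 2. Of 6 tested mesenchymal markers 4 were higher in batch 2, of 4 tested epithelial markers 2 (KRT8 and KRT18) and of 2 tested immune markers 1 (CD14), and 0 of these were called in cIDR. The part of these markers in the differences of the enzymes was not tested. Of the 12 listed genes called in cIDR against WT, PFKP, NDRG1, VEGFA and DBH stayed called without batch 2, and 6 of 12 on log2(TPM + 1). With single libraries left out 7 to 12 did, and with no replicate block 0 did. Of the 6 called in NCTAD against WT, 5 stayed called without batch 2, 4 on log2(TPM + 1), 3 to 6 with single libraries left out and 0 with no replicate block.

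Across the 16 libraries the enzymes varied together beyond the batch means. After the batch mean of each was subtracted, Pearson's r between pairs of enzymes ran from 0.38 (PGAM1 and ENO2) to 0.96 (ALDOA and PKM) over the 45 pairs. These libraries share their batch partners and their scaling factors, so the values describe them only. Group means were not subtracted, so the group differences above are part of these r values. No r between pairs of other genes was computed to set beside them. Among 12364 genes with a symbol and a mean log2 CPM of at least 1, those whose batch-centred pattern was most like the mean of the enzymes were OPRL1 (r = 0.95), PLOD1 (r = 0.92), MLF2 (r = 0.92), MTFP1 (r = 0.91) and NFKBIE (r = 0.91). Without centring the leading genes were BCKDK, BCKDHA, REEP4, MPI and WDR54, ranked by Pearson's r over 16 libraries of which those of batch 2 stand apart.

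Reads of near-identical copies and overlapping genes limit some rows. Processed pseudogene rows of GAPDH, 65 in number, held counts equal to 2.27% to 4.56% of the GAPDH count by library, and those of TPI1 1.86% to 2.96%. Adding the pseudogene counts to their parent genes left the same 9 enzymes called in batch 2. Overlapping genes on the same strand, counted in rows of their own, were largest relative to the enzyme for PGK1 and ALDOA. ATP7A had counts equal to 4.66% of the PGK1 count over all libraries, and AC093512.2 had counts equal to 3.20% of the ALDOA count.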

How the data were processed

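RNA from 16 SK-N-BE(2) libraries was sequenced as poly(A)-selected stranded libraries. The deposited tables hold estimated counts per gene, and TPM scaled by the authors to transcript length and depth, from Salmon per the table names. The submitters' processing notes also name fastp, STAR, featureCounts and the build GRCh38, and versions are not given in the sources used here. Column names of the tables write WT for the FL libraries and CTRL for the WT libraries; groups follow the sample labels. The library names also read BE2c where the titles give SK-N-BE(2); the line is named here as in the titles. The enzymes, gene lists and comparisons were chosen with earlier results of these data known.

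Estimated counts (22.3% of nonzero values were not whole, at a tolerance of 0.01) were rounded and filtered with filterByExpr by group. Groups were compared with edgeR 4.0.16 (R 4.3.3, TMM, quasi-likelihood test, all 16 libraries, terms for group and batch), Benjamini-Hochberg adjusted over 19530 genes and called under 0.05. The SE is the log2 difference divided by the square root of F. Intervals take normal quantiles of that SE, so they are narrower than the F test would give. The batch term was kept because same-numbered libraries share a labelled batch. Their deviations from group means correlated with a mean r of 0.308 (0.0674 to 0.712). The mean r for different numbers was −0.151, but subtracting group means itself pushes that value down, so it is no separate support. No libraries of a group were copies of each other (chi-square per degree of freedom at least 6.88).

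CPM used TMM-scaled library sizes. All 10 enzymes are named, other genes only as list members (up to 3 per list with the smallest adjusted p in cIDR against WT; LDHA, LDHB and the markers KRT18, KRT19, CD14, PTPRC, CD3E and CDH1 were added after their values were seen), as overlapping genes (ATP7A and AC093512.2, also chosen after their values were seen), as the check of the labels (EPAS1) or as the 5 most like the enzymes. Alternatives were no replicate block, median-of-ratios factors, DESeq2 1.42.0, no filter, a minimum of 10 counts in each library, fits to the 8 libraries compared, pseudogene counts added, limma 3.58.1 on log2(TPM + 1) and log2(TPM + 0.1), other references for batch 2 or no group term there, and each library or batch 2 left out. Counts on TPM in place of CPM, and the listed genes under the same alternatives, were added after seeing the data. Strand handling in counting is not given in the sources used here. The estimated counts cannot separate endogenous EPAS1 from the transfected sequence.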

Additional observations from a re-analysis of the deposited data

Results flagged for a closer look

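Each enzyme was checked in each group of 4 libraries for a library far from the rest (40 checks; chance flags about 1 in 20). PGK1 was flagged in WT, where batch 2 read 940.8 CPM and the other libraries 544 to 581 CPM, and in cIDR, where batch 2 read 1181 CPM and the others 593 to 651 CPM. ENO2 was flagged in cIDR, where batch 2 read 269 CPM and the others 230.3 to 233 CPM. All 3 lie in batch 2.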

How the results depend on the processing

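The 2 aldolase calls in cIDR were lost under several alternatives in which the log2 differences stayed at 0.23 to 0.53; leaving out batch 2 also removes 4 of the 16 libraries. Enzymes called in cIDR against WT numbered 2, and 0 with no replicate block, 0 without batch 2, 0 on log2(TPM + 1) and on log2(TPM + 0.1), 4 in DESeq2, and 1 to 3 with single libraries left out. NCTAD against WT gave 0, and 1 in DESeq2. Batch 2 gave 9, and 8 with no group term and 7 to 9 with single libraries left out. In the other comparisons 0 enzymes were called under every alternative run. The causes were not tested. With TPM in place of CPM, chosen after seeing the data, enzymes higher in 4 of 4 batches went from 10 to 3 in cIDR against WT, from 4 to 2 against FL and from 3 to 8 against NCTAD. Enzymes without overlap went from 2 to 1 in cIDR against WT and from 5 to 8 in batch 2.

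Counts over all tested genes moved more. With no replicate block FL, NCTAD and cIDR against WT gave 2, 5 and 2 calls in place of 20, 89 and 95, and cIDR against FL and NCTAD gave 0 and 0 in place of 6 and 1. DESeq2 gave 58, 168 and 156 against WT, 12 for NCTAD against FL, and 46 and 21 for cIDR against FL and NCTAD. Without the low-count filter these were 68, 149, 145, 18, 37 and 13. On log2(TPM + 1) NCTAD and cIDR against WT gave 36 and 49, and cIDR against FL and NCTAD gave 0 and 0; on log2(TPM + 0.1) these were 47, 47, 0 and 0. With only the 8 libraries compared, FL against WT gave 8, and cIDR against FL and NCTAD gave 0 and 10. Without batch 2, cIDR against WT gave 46, NCTAD against FL 5, and cIDR against FL and NCTAD 10 and 0. Leaving out single libraries of the 2 groups compared gave 10 to 23, 43 to 83 and 49 to 72 for FL, NCTAD and cIDR against WT, 0 to 5 for NCTAD against FL, and 0 to 8 and 0 to 2 for cIDR against FL and NCTAD. With a library of another group left out of the shared fit, FL, NCTAD and cIDR against WT gave up to 26, 124 and 123. Interaction terms with batch 2 called 1, 6 and 3 genes for FL, NCTAD and cIDR, and 8, 10 and 9 in DESeq2, 20, 24 and 20 without the filter, 2, 3 and 1 on log2(TPM + 1), 4 and 3 for FL and NCTAD on log2(TPM + 0.1), and 0 for FL with at least 10 counts in every library.

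Signs turned for small uncalled differences and for GAPDH in batch 2. On log2(TPM + 1) and log2(TPM + 0.1) alike, NCTAD against WT turned to −0.042 for GPI, −0.036 for PGAM1, −0.034 and −0.035 for ENO1 and −0.015 for ENO2. On both, ALDOA turned to −0.023, ENO2 to −0.021 and PKM to −0.038 in NCTAD against FL, ENO1 to −0.022 and GAPDH to −0.019 in cIDR against FL, and PKM to 0.027 in batch 2. In NCTAD against FL, TPI1 turned to 0.0063 without the low-count filter, and ALDOC to 0.011 and PGAM1 to 0.013 without batch 2. ENO1 turned to −0.042 in cIDR against FL without batch 2, and GAPDH to −0.031 in batch 2 against batch 1 alone. With single libraries left out, FL against WT ran from −0.0023 to 0.10 for ENO2 and from −0.0022 to 0.092 for PGAM1, NCTAD against WT from −0.015 to 0.088 for PGAM1, and cIDR against NCTAD from −0.0049 to 0.12 for PGK1. NCTAD against FL ran from −0.10 to 0.013 for ENO1, −0.064 to 0.023 for ALDOC, −0.056 to 0.030 for TPI1, −0.065 to 0.012 for GAPDH, −0.031 to 0.090 for PGK1, −0.080 to 0.044 for PGAM1, −0.033 to 0.056 for ENO2 and −0.019 to 0.032 for PKM. In the same way cIDR against FL ran from −0.038 to 0.082 for ENO1, −0.0027 to 0.069 for GAPDH and −0.010 to 0.090 for GPI.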
